A study of Mus musculus with 4 samples.

Results

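Of the 68920 CTCF-bound regions that the peak lists of 3 osteoblast stages gave on mouse chromosomes 1 to 19, 4291 held exactly 1 peak at every stage and had a peak score of 3100 or more at every stage, the value at which most of the highest scores are tied. They are called saturated sites below. The peak lists of day 0, day 9 and day 28 were joined wherever peaks shared at least 1 bp, and a region was kept if its score was 3100 or more in all 3 lists. The sites were thus chosen by their measured scores, which are given as a description with no test. The saturated sites made up 12.4% (95% Wilson interval 12.1 to 12.8) of the 34524 regions with exactly 1 peak in every list. The remaining 30233 of those regions are called the other shared sites. Wilson intervals here cover counting error only, and neighbouring sites are not independent.

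CTCF is a zinc-finger protein that recognizes a long, directional DNA motif and, with the ring-shaped cohesin complex, marks the boundaries of chromatin domains and the anchors of loops. It also acts as an insulator that keeps enhancers from reaching promoters across it, and it reads the methylation state of imprinted control regions. Many of its sites are occupied in nearly every cell type, and sites with a close match to the motif tend to be bound more strongly and more constantly than weak sites. Such constant sites are commonly taken as the fixed frame on which cell type specific contacts are laid.

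All samples came from MC3T3-E1 subclone 4 at passages 28 to 31. This preosteoblast line originated from mouse calvaria, with the strain given as C57BL/6. It lays down collagen matrix and mineralizes it when it receives ascorbic acid and beta-glycerophosphate. These are listed at 280 µM and 10 mM for the day 9 and day 28 cells, with no value listed for day 0. Time and supplements thus cannot be told apart in comparisons with day 0. Chromatin was taken from proliferating cells at day 0, from matrix-depositing cells at day 9 and from mineralizing cells at day 28, and was immunoprecipitated with 1 antibody against CTCF. Each stage had 2 repeats per the labels but 1 deposited peak list, so no difference between stages or between groups of sites below has a replicate error, and none could be tested. All stages come from 1 cell line, and the input libraries from day 9 cells were not analysed here. Peaks over all chromosomes numbered 67679 (day 0), 42774 (day 9) and 45793 (day 28), and the read depth behind them is unknown.

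The day 9 list set which sites were saturated throughout. Among the single-peak shared regions, day 0 had 11165 saturated ones, day 9 had 4387 and day 28 had 7791. Of those saturated at day 9, 97.8% (97.3 to 98.2) were saturated at the other stages too. That share was 38.4% (37.5 to 39.3) of the regions saturated at day 0 and 55.1% (53.97 to 56.2) of those saturated at day 28. A site that was saturated at day 0 and day 9 was saturated at day 28 in 98.5% (98.1 to 98.8) of 4358 cases, and one saturated at day 9 and day 28 was saturated at day 0 in 99.4% (99.2 to 99.6) of 4315 cases. Of the 7409 regions saturated at day 0 and day 28, 57.9% (56.8 to 59.04) were saturated at day 9.

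The 3118 regions that missed the limit at day 9 only had high day 9 scores all the same. Their median day 9 score was 2440.26, with quartiles of 2087.28 and 2765.79 and a lowest value of 839.49. The regions that missed at another stage were few: 67 at day 28, with a median day 28 score of 2792.19, and 24 at day 0, with a median day 0 score of 2238.52. A score grows with sequencing depth, so the lower number of saturated peaks at day 9 cannot be told apart from a shallower day 9 library.

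**Figure D1:**
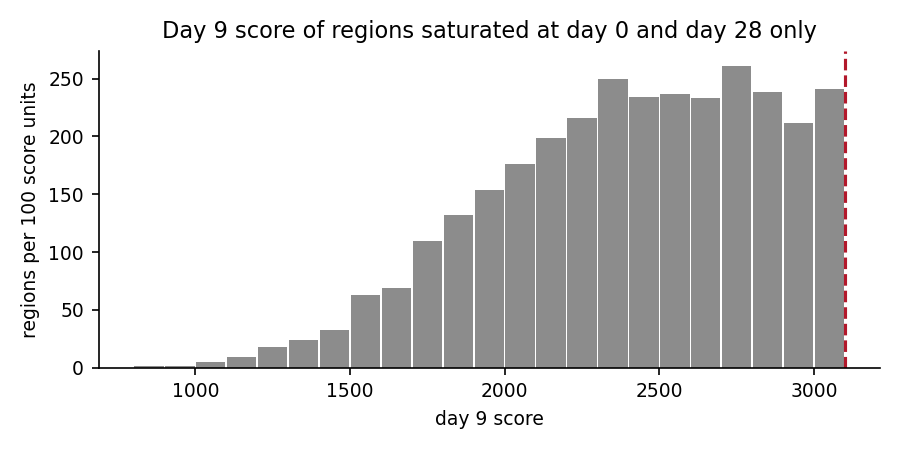
The number of regions (vertical axis) per 100 units of the day 9 score (horizontal axis) is shown for the 3118 regions below the limit at day 9 and saturated in the other lists. The dashed line marks the limit of 3100; the counts are highest and nearly level from about 2300 up to it, with a median score of 2440.26, and thin out down to 839.49.

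The limit itself is a tie rather than a maximum. A score of exactly 3100 was held by 4285 of the saturated sites at day 0, by 4009 at day 9 and by 4272 at day 28. Scores above it, up to 3213.92 at day 0, 3233.06 at day 9 and 3230.05 at day 28, were held by 6, 282 and 19 sites. In the lists as a whole these higher scores carried on the run of values below 3100 without a step: chromosomes 1 to 19 held 282 day 9 peaks between 3000 and 3100 and 352 above 3100, but 4453 at exactly 3100. MACS gives a fixed value to peaks whose p-value is too small to be stored. At day 9 the sites at exactly 3100 had a median width of 775 bp, and those above 3100 had 707 bp, the same as the 261 single-peak shared regions scoring from 3000 to just under 3100. In the same order the medians were 934, 693 and 705 bp at day 0 and 992, 899 and 850.5 bp at day 28. In all, 3991 sites stood at exactly 3100 at every stage, and 300 had a numerically higher score in at least 1 list, so they were not at the tie there.

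Around the numeric limit of 3100, some sites passed or failed by small margins. If 3100 is the fixed value for p-values too small to be stored, a score just above it does not rank above the tied peaks. The lowest scores above 3100 among the saturated sites were 3101.66 at day 0 (chromosome 1 at 90458657 to 90459503), 3102.02 at day 9 (chromosome 4 at 147434268 to 147435146) and 3104.87 at day 28 (chromosome 8 at 94321084 to 94322247). The regions that missed by least all missed at day 9 and stood at 3100 in the other lists. Their day 9 scores were 3099.84 on chromosome 10 (110164666 to 110165420), 3098.56 on chromosome 13 (52753401 to 52754549) and 3097.27 on chromosome 3 (116127611 to 116128417).

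With the scores tied, peak width is the graded measure that remains, and the saturated sites were wide. Their median width was 933 bp at day 0 (quartiles 761 and 1182), 771 bp at day 9 (662 and 936.5) and 992 bp at day 28 (863 and 1198). The other shared sites had medians of 617 bp at day 0, 513 bp at day 9 and 704 bp at day 28. The 3209 sites saturated in exactly 2 lists lay between, with 799, 675 and 895 bp. Ranked by width among the 34524 single-peak shared regions of the same list, the saturated sites stood at a median percentile that was 79.6 in the day 0 list, 83.5 in the day 9 list and 82.1 in the day 28 list. At these stages 90.7%, 94.1% and 94.3% of them were wider than the median region. Width and score come from the same peak calls, so this is no independent sign of stronger binding.

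**Figure D2:**
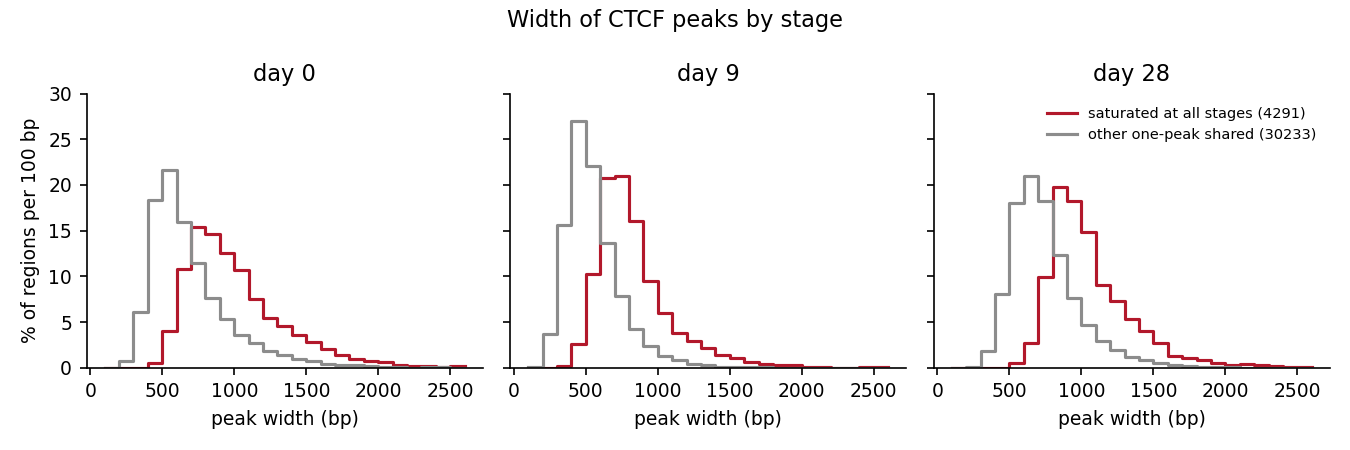
The share of regions (vertical axis, % per 100 bp) is shown by peak width (horizontal axis, bp) at each stage, without the few peaks of 2600 bp or more, for the 4291 saturated sites (red) and the 30233 other shared sites (grey). The saturated sites lie to the right at every stage, with medians of 933, 771 and 992 bp against 617, 513 and 704 bp.

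The widths of the saturated sites followed those of the whole lists from stage to stage. At a given site the median ratio of widths was 0.859 for day 9 over day 0, 1.26 for day 28 over day 9 and 1.07 for day 28 over day 0. For the other shared sites these ratios were 0.839, 1.34 and 1.11. Day 9 was the narrowest stage for 81.0% of the saturated sites and for 76.6% of the other shared sites. Day 28 was the widest stage for 64.5% and 66.4%.

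A peak was counted as wider if its width was at least 25% higher at the later stage, and as narrower if it was at least 20% lower, and the counts were set against all 34524 single-peak shared regions. From day 0 to day 9, 1531 saturated sites (35.7%, 34.3 to 37.1) were narrower at day 9, against 41.0% of all regions, and 50 (1.17%, 0.885 to 1.53) were wider, against 2.87%. From day 9 to day 28, 2263 (52.7%, 51.2 to 54.2) were wider at day 28, against 62.2% of all regions, and 28 (0.653%, 0.452 to 0.941) were narrower, against 0.886%. From day 0 to day 28, 817 (19.04%, 17.9 to 20.2) were wider at day 28, against 28.5% of all regions, and 350 (8.16%, 7.37 to 9.01) were narrower, against 9.34%. In each of these counts the share of saturated sites lay below that of all regions. A given change in bases is a smaller fold of a wider peak, and the part of that in these shares was not tested.

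The order of widths among the saturated sites was largely kept. Spearman's rho across the 4291 sites was 0.734 between day 9 and day 0, 0.718 between day 28 and day 9, and 0.733 between day 28 and day 0. For the other shared sites it was 0.693, 0.711 and 0.702, over a wider range of scores. All points of a pair come from the same 2 lists, and the values are descriptions.

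The peak centres mostly lay close together across stages, though less so than in the other shared sites. For each saturated site the largest distance between its peak centres at any pair of stages had a median of 80.5 bp (quartiles 48 and 139.5). Between day 9 and day 0 the centres lay a median of 46 bp apart, between day 28 and day 9 47.5 bp and between day 28 and day 0 51 bp. There was no common direction, since the median signed distances were -1, -0.5 and -1.5 bp. In the other shared sites, whose peaks are narrower, the largest distance had a median of 63 bp. Sites saturated in exactly 2 lists lay between, with 71 bp. Centres at least 200 bp apart were found in 572 saturated sites (13.3%, 12.3 to 14.4), against 8.76% of all single-peak shared regions. For sites saturated in exactly 2 lists this share was 10.4%. Peak summits were not used here, so a shift of the centre can come from either edge.

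Some change of width was usual, and the ratio of widest to narrowest stage had a median of 1.34 over the saturated sites. A few sites changed far more. The largest ratio of widest to narrowest stage was 4.37, on chromosome 2 at 31149979 to 31152965, where the peak was 2961 bp wide at day 0, 678 bp at day 9 and 1144 bp at day 28. The next were on chromosome 2 at 131386767 to 131389794 (3028, 788 and 1186 bp) and chromosome 19 at 53674024 to 53676026 (1934, 522 and 1430 bp). All of them were widest at day 0 and narrowest at day 9. The first of these sites also had the centres farthest apart, at 934.5 bp. It was followed by chromosome 1 at 180458713 to 180461468, with 893 bp between centres and widths of 2627, 787 and 2022 bp, and by chromosome 11 at 59917628 to 59920349, with 759.5 bp and widths of 2658, 788 and 1267 bp.

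Other saturated sites were almost the same width throughout. The smallest ratio was 1.01, on chromosome 17 at 39979803 to 39985991, where the peak was 6162 bp wide at day 0, 6188 bp at day 9 and 6102 bp at day 28. This site was also among the widest. The others with the smallest ratios had ordinary widths: chromosome 3 at 51451823 to 51452886 (946, 956 and 960 bp, ratio 1.0148) and, with a ratio of 1.015, the site at 7594967 to 7595856 on chromosome 9 (803, 800 and 812 bp).

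The widest saturated site lay near the start of chromosome 17 at 3078862 to 3085533, with 6649, 6200 and 6266 bp at the 3 stages. After the chromosome 17 site at 39979803 came chromosome 18 at 63811930 to 63815834 (3901, 3563 and 3789 bp). The input was not analysed here, so the signal of input DNA at these wide sites was not compared. The narrowest were on chromosome 7 at 127898072 to 127898633 (459, 433 and 328 bp), chromosome 6 at 59447947 to 59448513 (324, 365 and 549 bp) and chromosome 2 at 22720141 to 22720689 (479, 383 and 495 bp). They reached the score limit with peaks narrower than the median other shared site. The lowest score over the stages was 3100 in all 4291 sites, so the highest of these lowest scores named no site; the first saturated sites by position, on chromosome 1 at 4758387, 10029070 and 10079413, were 597, 1066 and 529 bp wide at day 0.

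Saturated sites were spread over all of chromosomes 1 to 19, at 0.742 to 3.54 per Mb of the span covered by regions and 1.78 per Mb in all. Chromosome 17 had the highest share of its single-peak shared regions saturated at every stage (296 of 1702, 17.4%, 15.7 to 19.3), followed by chromosome 11 (421 of 2745, 15.3%, 14.04 to 16.7) and chromosome 15 (222 of 1513, 14.7%, 12.98 to 16.5). The lowest shares were on chromosome 13 (87 of 1315, 6.62%, 5.39 to 8.09), chromosome 3 (133 of 1627, 8.17%, 6.94 to 9.61) and chromosome 12 (128 of 1355, 9.45%, 8.002 to 11.1). On chromosome X, which the choice of sites leaves out, 25 of 842 single-peak shared regions met the same limits.

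The place of chromosome 17 depended on day 9. Of its 382 regions saturated at day 0 and day 28, 77.5% (73.04 to 81.4) were saturated at day 9 as well, the highest share of the 19 chromosomes; the next was chromosome 8 with 63.6% (58.98 to 68.05). The lowest shares were on chromosome 3 (42.1%, 36.8 to 47.6), chromosome 13 (45.3%, 38.4 to 52.4) and chromosome 19 (49.5%, 44.1 to 55.003). When the day 9 score was not used, chromosome 19 stood first with 28.7% of its single-peak shared regions, chromosome 11 followed with 25.7%, and chromosome 17 ranked 7 of 19 with 22.4%.

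**Figure D3:**
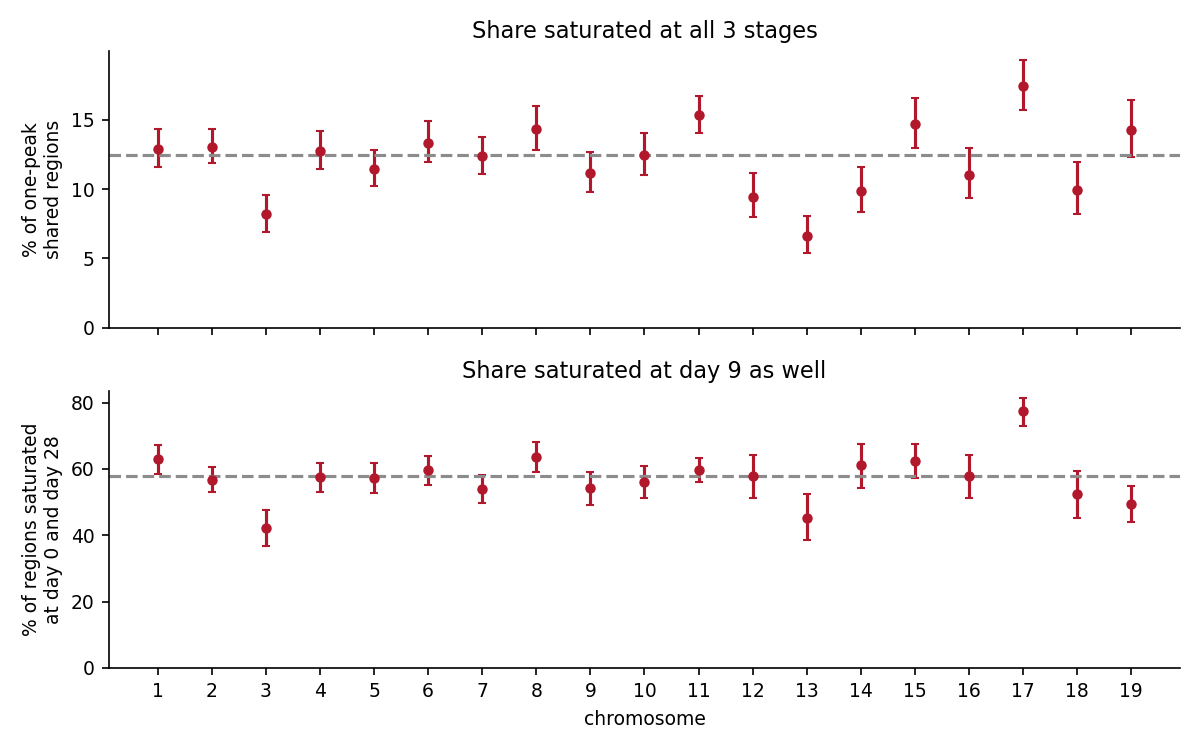
The upper panel shows, for each chromosome (horizontal axis), the share of single-peak shared regions that were saturated at all 3 stages (vertical axis, %), and the lower panel the share of regions saturated at day 0 and day 28 that were saturated at day 9 as well. Bars are 95% Wilson intervals and dashed lines the values over all chromosomes (12.4% and 57.9%); chromosome 17 is highest in both panels, with 17.4% and 77.5%.

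Widths also differed by chromosome. The median day 9 over day 0 width ratio of saturated sites was lowest on chromosome 19 (0.771) and highest on chromosome 1 (0.927), chromosome 17 (0.917) and chromosome 14 (0.916). The other shared sites also had their lowest ratio on chromosome 19 (0.760) and high ratios on chromosome 14 (0.912), chromosome 1 (0.898) and chromosome 17 (0.880). Over the 19 chromosomes the medians of both groups of sites had a Spearman's rho of 0.688 for day 9 over day 0 and 0.721 for day 28 over day 0, but 0.261 for day 28 over day 9. From day 9 to day 28 the ratio was lowest on chromosome 17, at 1.19 for saturated sites and 1.247 for the other shared sites, and highest on chromosome 19, at 1.33 and 1.41. Both groups of sites come from the same lists, so their values are not independent.

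Saturated sites lay where CTCF regions were dense. A saturated site had a median of 13 other union regions within 100 kb (quartiles 8 and 18), and an other shared site had 10 (6 and 15). The nearest other region was a median of 3689 bp away from a saturated site and 5272 bp away from an other shared site. Sites saturated in exactly 2 lists lay between, with 11 other regions (7 and 16) within 100 kb and the nearest 4208 bp away. When the single-peak shared regions were split into 5 bins of equal size by the number of other regions within 250 kb, the share of saturated sites was 5.63% (5.11 to 6.20) in the sparsest bin and then 9.93%, 12.1%, 16.4% and 18.1% (17.2 to 19.03) in the densest. Bins made within each chromosome gave 6.22% (5.68 to 6.82) in the sparsest and 17.4% (16.5 to 18.3) in the densest. Counting only neighbours found at all stages gave 5.97% and 18.3%. The saturated sites themselves were wider in dense parts: their median day 0 width was 768 bp in the sparsest bin and 1047 bp in the densest.

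**Figure D4:**
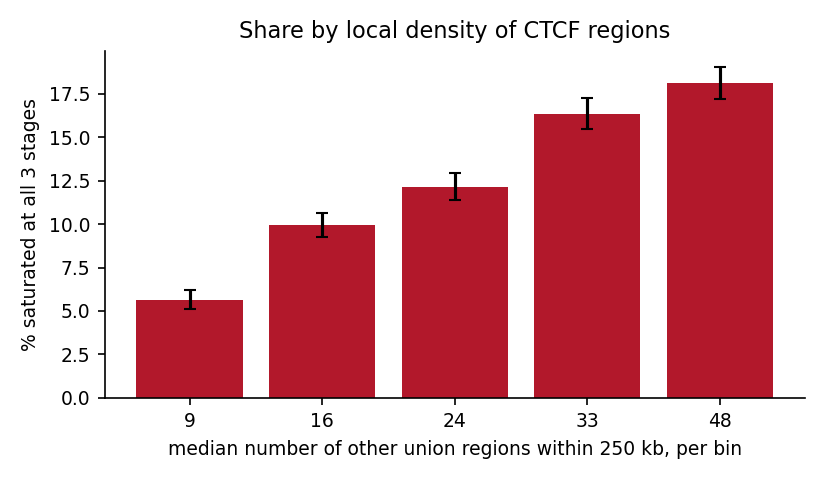
The share of single-peak shared regions saturated at all 3 stages (vertical axis, %, bars from 0 with 95% Wilson intervals) is shown for 5 equal bins of these regions by the number of other union regions within 250 kb (horizontal axis, median of each bin). The share stands at 5.63% in the sparsest bin and at 18.1% in the densest.

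The kinds of neighbour differed little. Of all regions within 100 kb, 54.4% were found at every stage around saturated sites and 54.4% around the other shared sites. Regions found at day 0 alone made up 29.6% of the neighbours of saturated sites and 29.5% of those of the other shared sites. Of the regions directly next to a saturated site, 56.6% were found at all stages and 27.7% at day 0 alone, against 54.8% and 28.8% next to the other shared sites. The surroundings of saturated sites thus held more regions, but day 0-only regions in nearly the same proportion.

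Saturated sites also lay near each other. Another saturated site was within 10 kb of 609 saturated sites (14.2%, 13.2 to 15.3) and within 10 kb of 9.70% (9.37 to 10.04) of the other shared sites. Within 100 kb these shares were 61.2% (59.8 to 62.7) and 47.4% (46.9 to 47.98). For sites saturated in exactly 2 lists they were 11.9% within 10 kb and 53.4% within 100 kb. The median distance to the nearest saturated site was 63.8 kb from a saturated site, against 86.3 kb from a site saturated in 2 lists and 111 kb from an other shared site. The density of regions around saturated sites was higher as well, as given above, and its part in these shares was not tested. The closest pair abutted, with 0 bp between the regions at 47929096 to 47930002 and 47930003 to 47931191 on chromosome 17. The next pairs were 29 bp apart on chromosome 5 at 36738391 to 36742262 and 35 bp apart on chromosome 2 at 32341809 to 32345061.

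In windows of 1 Mb, 1287 of the 2227 windows with a single-peak shared region held a saturated site. The 70 windows with at least 10 held 847 sites, 19.7% of all. The fullest window was chromosome 10 from 79 to 80 Mb, with 24 saturated sites among 73 single-peak shared regions (32.9%), and the next megabase of that chromosome held 18. At the other end, 79 stretches of over 5 Mb between neighbouring saturated sites held none. The 3 longest were 22.9 Mb of chromosome 14 (78883172 to 101778386), 18.95 Mb of chromosome 16 (59683753 to 78635360) and 15.7 Mb of chromosome 12 (55162466 to 70858673). These were not free of CTCF, with 53, 83 and 84 single-peak shared regions inside them.

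The most isolated saturated site lay on chromosome 2 at 86304599 to 86305466, 738118 bp from any other region. It was 672, 648 and 868 bp wide at the 3 stages, with centres within 23 bp of each other. The next were chromosome 2 at 114679334 to 114680196, 198184 bp from the nearest region (673, 696 and 863 bp wide, centres within 16.5 bp), and chromosome 15 at 67265631 to 67266425, 192186 bp away (621, 600 and 795 bp, centres within 26.5 bp). All of them were narrower than the median saturated site at each stage, and their centres shifted less than the median of 80.5 bp.

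Most saturated sites had no other saturated site as a direct neighbour. Of the runs of directly neighbouring saturated sites, 3569 held a single site, 303 held 2, 27 held 3 and 5 held 4, and 1 run held 15. That run lay on chromosome 4 at 88402757 to 88452693, a span of 49.9 kb, with no other region between its members. All 15 sites stood at exactly 3100 at every stage. The regions to either side did not: the left one, 1420 bp away at 88400476 to 88401336, scored 2343.93 at day 0, 977.1 at day 9 and 1149.31 at day 28, and the right one, 16058 bp away at 88468752 to 88469547, scored 1469.65, 870.39 and 1842.04.

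The sites of this run were evenly spaced. Of the 14 steps between the centres of neighbouring sites, 13 measured 2856 to 3005.5 bp, with a median of 2918 bp and a mean of 2925 ± 45.6 bp (SD over the 13 steps). The remaining step, between the third and the fourth site, was 10311 bp, 3.53 times the median step. The peaks were 1454 to 1657 bp wide at day 0 (median 1588), 984 to 1625 bp at day 9 (median 1370) and 1322 to 1596 bp at day 28 (median 1450), above the medians of all saturated sites. They were narrower at day 9 than at day 0 in 14 of 15 sites, and narrower at day 28 than at day 0 in 14 of 15, whereas saturated sites as a whole were wider at day 28 (median ratio 0.922 in the run and 1.07 in all). Whether these sites share a sequence was not tested, so they may not be separate observations. Each of the 15 is nevertheless counted as a site in the values given here. Without them the share of saturated sites on chromosome 4 was 12.1%, against 12.7% with them.

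**Figure D5:**
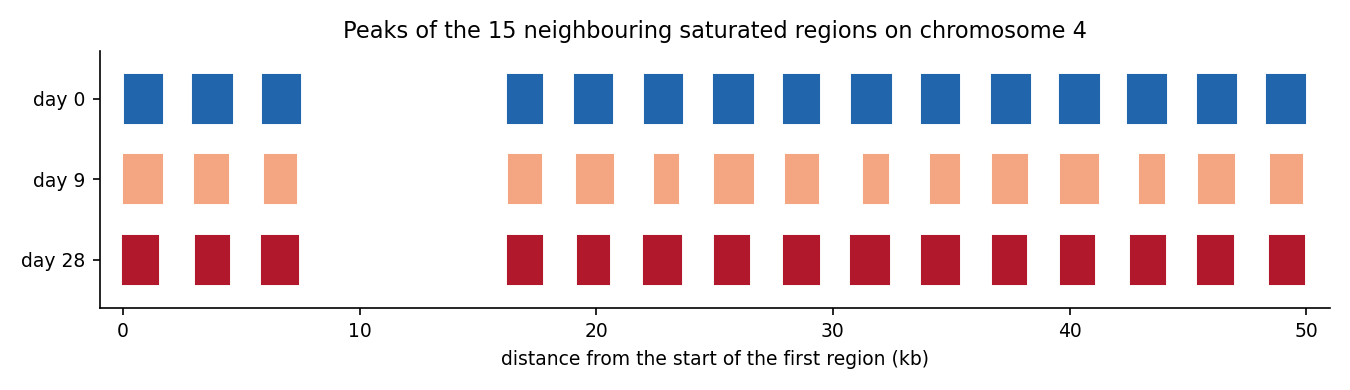
Boxes show the deposited peaks of the 15 neighbouring saturated sites on chromosome 4 at each stage (vertical axis), to scale by distance from the start of the first region (horizontal axis, kb). The boxes repeat at steps of about 2918 bp, apart from 1 step of 10311 bp after the third site.

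Evenly spaced sites were rare elsewhere. Sets of 5 successive saturated sites whose steps differed by at most 1.2-fold were found 9 times, with overlapping sets counted. Of these, 8 overlapped along the chromosome 4 run and make up a single stretch. The remaining set lay on chromosome 10 at 60609548 to 60862886 with a mean step of 63013 bp. Of the runs of 4, the looser ones lay on chromosome 5 at 115956234 to 116009961, chromosome 6 at 47780013 to 47871121, chromosome 9 at 119338860 to 119375225, and chromosome 11 at 20231942 to 20355878. A further run of 4 on chromosome 17, at 35862125 to 35877654, was the tightest of the 5, with its sites in 15.5 kb.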

How the data were processed

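CTCF ChIP-seq peak lists of 3 stages were used, 1 per stage, with inserts of 200 ± 50 bp and 36-base reads per the labels. The tools were Bowtie 0.12.8, MACS 1.4.1 and CASAVA 1.6 with mouse build mm9, per the submitters' processing notes. How the 2 repeats and the 2 input libraries entered the lists is not given in the sources used here. The deposited score of each peak is the authors' value, taken to be −10 log10 of the caller's p-value. Peak starts and ends were used as deposited, and are printed counted from 1. Depth is unknown.

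Peaks were merged with Python 3.11.15 and pandas 2.3.3, tested on simulated lists. Distances run edge to edge, neighbour windows from centre to centre. Wilson intervals come from scipy 1.17.1. No test was possible with 1 list per stage. The only gene table given is of GRCm38, another build, so sites were assigned to no gene and no sequence or motif was examined. Regions to be named were the extremes of width, width ratio, centre distance, isolation, spacing and chromosome share, and those nearest the limit. The members and lists were chosen with earlier results of these data known. Alternatives changed overlap, score limit, list length, peaks per list and window.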

Additional observations from a re-analysis of the deposited data

How the results depend on the processing

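Of 131 values recomputed, 87 stayed within the 95% interval of the value reported (counts of sites: within 1.5-fold). Merging on 50% of the shorter peak moved none. The setting that used only scores of exactly 3100 was chosen after seeing the data; the share saturated became 11.6% and the nearest saturated site 70.003 kb away. With a limit of 3000 these were 13.2% and 60.6 kb. With a limit of 2500 they were 17.3% and 48.9 kb, the shares on chromosomes 17, 11, 15, 13, 3 and 12 were 22.4%, 20.4%, 19.8%, 10.6%, 13.2% and 13.1%, the widths 893 bp (day 0), 748 bp (day 9) and 966 bp (day 28), and the day 28 over day 0 ratio 1.09. Without the day 9 score 7409 sites qualified (21.5%), 40.9 kb apart, with chromosome shares of 22.4%, 25.7%, 23.5%, 14.6%, 19.4% and 16.3% in the same order, widths of 872, 732 and 948 bp, a ratio of 1.09 and centres 76.5 bp apart. With 42774 peaks per list the share was 13.8%, chromosome 17 had 19.3% and chromosome 11 16.8%, the nearest region was 5.14 kb away, and 9 regions lay within 100 kb, 67.5% of them found at all stages. With several peaks per list kept, the share was 12.9%, the distance 58.1 kb, the widths 966, 791 and 1017 bp and the ratio 1.07. Windows of 50 and 250 kb held 6 and 30 regions. No replicate could be left out and no paired analysis was possible because each stage has 1 list. The tie at 3100 hides differences among the sites that hold it, and with depth unknown the day 9 limit may be stricter than the others.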
